A study of Mus musculus with 29 samples.

Results

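The phagocyte NADPH oxidase was followed through 6 genes, Cybb, Cyba, Ncf1, Ncf4, Rac2 and Hvcn1, in TRAP-RNAseq of mouse brain. They were taken by gene symbol from a table of 36172 gene rows, of which 22115 had a count in any library. TRAP (translating ribosome affinity purification) pulls ribosomes that carry an EGFP-tagged L10a protein, with the RNA they hold, out of a tissue homogenate. Aldh1l1-Cre/Ert2+; NuTRAP+ mice (Aldh1l1-NuTRAP) made the tagged protein in astrocytes and Cx3cr1-Cre/Ert2+; NuTRAP+ mice (Cx3cr1-NuTRAP) in microglia, after tamoxifen at 100 mg/kg on 5 consecutive days at about 3 months of age, which every mouse received. The Aldh1l1-NuTRAP groups were the negative (unbound) and positive (bead-bound) fractions of 3 mice. The Cx3cr1-NuTRAP groups were the input (cleared homogenate), negative and positive fractions of 6 mice, and whole tissue RNA of 5 of them. The Cre of either line acts in every cell that uses the Aldh1l1 or the Cx3cr1 promoter, and Cx3cr1 is also active in macrophages at the brain borders and in some blood leukocytes. In the study's design, brains of this line were taken some weeks after tamoxifen, a delay meant to let tagged blood monocytes be replaced. For the Aldh1l1-NuTRAP line, input and tissue libraries were not analysed here. Sex is not given in the labels used.

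The phagocyte oxidase is a membrane enzyme that moves electrons from NADPH inside the cell to oxygen outside it or in the phagosome, and so makes superoxide. Its membrane core is a pair of proteins, a catalytic subunit and a stabilising partner, and it stays silent until cytosolic subunits and a Rac GTPase dock onto it. Phagocytes use it against microbes, loss of its subunits causes chronic granulomatous disease, and in the brain it is known chiefly as an oxidant source of microglia. Cybb encodes the catalytic subunit gp91phox and Cyba its partner p22phox. Ncf1 encodes the organiser p47phox, which bridges the cytosolic subunits to Cyba, and Ncf4 encodes p40phox, which binds the lipid PI3P on phagosomes. Rac2 is the Rac GTPase of blood-lineage cells, and Hvcn1 is a proton channel that balances the charge the oxidase moves.

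In mm10, Cybb lies at chrX:9435252-9469324 on the minus strand, Cyba at chr8:122424771-122432940 on the minus strand and Ncf1 at chr5:134220260-134229625 on the minus strand. Ncf4 lies at chr15:78244811-78262580 on the plus strand, Rac2 at chr15:78559169-78572783 on the minus strand and Hvcn1 at chr5:122209737-122242297 on the plus strand. Cyba, Ncf1 and Hvcn1 each overlap a gene on the other strand (Gm20388, Gtf2ird2 and Tctn1), and the methods describe directional libraries and alignment. Because the members were followed together, the start-site windows of the 3 that the RefSeq promoter table (GRCm38.p6) held are shown, from 130 bases before to 20 bases from the start site, read 5′ to 3′ along the gene. Capitals mark matches, on either strand, to GAGGAA (the PU.1 core), TGTGGT (the RUNX core) or GGGCGG (the GC box).
Cybb, chrX:9469305-9469454, minus strand: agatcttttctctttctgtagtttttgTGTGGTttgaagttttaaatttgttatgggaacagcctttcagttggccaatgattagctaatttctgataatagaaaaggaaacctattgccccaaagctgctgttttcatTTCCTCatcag
Cyba, chr8:122432921-122433070, minus strand: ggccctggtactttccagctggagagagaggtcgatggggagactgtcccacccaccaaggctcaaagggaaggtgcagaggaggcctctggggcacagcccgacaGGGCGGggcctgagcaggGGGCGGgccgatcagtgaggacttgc
Ncf1, chr5:134229606-134229755, minus strand: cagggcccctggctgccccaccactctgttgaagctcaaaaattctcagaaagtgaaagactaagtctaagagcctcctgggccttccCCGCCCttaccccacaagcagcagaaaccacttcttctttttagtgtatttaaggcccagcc
The Cybb window held the RUNX letters 103 bases before the start site and the reverse complement of the PU.1 letters from base 10 on. The Cyba window held the GC box at 24 and at 6 bases before the start site, and the Ncf1 window held its reverse complement 42 bases before it. Of the 32851 windows of this length in the table, 14.7% held GAGGAA, 8.38% held TGTGGT and 29.1% held GGGCGG on either strand, none of the 3 motifs overlapping another here. The windows of the other 3 members were not shown.

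The shallowest library held 4260949 counts (tissue RNA of mouse 210) and the deepest 26857866, with 15486605 to 19831228 in the positive fractions of the Cx3cr1-NuTRAP line. Levels are given as CPM, counts per 1000000 counts of the library. Depth was thinnest for Cybb and Ncf4, which had 84 to 198 and 122 to 291 counts in the Cx3cr1-NuTRAP positive fractions but at most 46 and 36 counts in any other library. The labels were checked against markers. The summed CPM of 12 microglia markers was 3600 to 8750 in the Cx3cr1-NuTRAP positive fractions against 431 to 480 in the inputs, and the summed CPM of 10 astrocyte markers was 17400 to 26300 in the Aldh1l1-NuTRAP positive fractions against 3290 to 4320 in the negative fractions. RNA of other cells remained in the Cx3cr1-NuTRAP positive fractions. Neuron markers summed to 5390 to 8210 CPM there against 7490 to 7840 CPM in the inputs, and astrocyte markers to 2960 to 4610 against 4860 to 5250 CPM. The part of these cells in the levels of that fraction was not tested. In the plots, "microglia positive" stands for the positive fraction of the Cx3cr1-NuTRAP line and "astrocyte positive" for that of the Aldh1l1-NuTRAP line.

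Whether the oxidase RNAs were on microglial ribosomes was addressed by the positive fraction against the input of the same 6 Cx3cr1-NuTRAP mice. Each of the 6 genes was higher in the positive fraction, from 5.69-fold for Cybb to 12.0-fold for Ncf1, in 6 of 6 mice, and no positive fraction overlapped an input for any of them. By edgeR's quasi-likelihood test with Benjamini-Hochberg adjustment over 13838 genes, 23.3% of all genes tested were higher, 2.2% were more than 5-fold higher, and 10.0% had every positive fraction above every input. Cybb and Ncf4 passed the filter on low counts only through the positive fraction, so the filter favoured a difference in those 2, and the other 4 passed it in both groups.

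Of the membrane core, Cybb was at 0.626, 1.31 and 2.04 CPM (lowest, median and highest of 6) in the input and at 5.39, 6.67 and 10.8 CPM in the positive fraction. Its lowest positive fraction thus stood above its highest input. The fitted log2 fold change of Cybb was 2.51 (SE 0.25, adjusted p = 2.84e-06). Cyba, the partner subunit, was at 5.79, 6.25 and 6.39 CPM in the input and at 40.3, 57.3 and 103 CPM in the positive fraction. Its 6 inputs lay within a narrow band and its positive fractions were spread widely, with mouse 194 highest. The log2 fold change of Cyba was 3.37 (SE 0.19, adjusted p = 2.73e-08), a 10.4-fold difference.

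Among the cytosolic subunits, Ncf1 was at 6.39, 7.72 and 8.69 CPM in the input and at 60.8, 82.8 and 145 CPM in the positive fraction. Its log2 fold change was 3.58 (SE 0.20, adjusted p = 2.61e-08), the largest of the 6, and it ranked 63 of the 13838 genes tested. Ncf4, the PI3P-binding subunit, was at 0.344, 0.968 and 1.48 CPM in the input and at 6.13, 8.66 and 15.9 CPM in the positive fraction. All its positive fractions lay above all its inputs, at a log2 fold change of 3.44 (SE 0.31, adjusted p = 9.45e-07).

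The Rac GTPase Rac2 was at 1.76, 2.76 and 2.98 CPM in the input and at 16.8, 19.3 and 37.6 CPM in the positive fraction. Its log2 fold change was 3.11 (SE 0.22, adjusted p = 7.69e-08). Rac1, its widely expressed relative that can also serve the oxidase, was at a mean of 351 CPM in the input and 344 CPM in the positive fraction, with a log2 fold change of -0.02 (SE 0.07, adjusted p = 0.855). The proton channel Hvcn1 was at 2.87, 3.66 and 4.31 CPM in the input and at 27.0, 30.0 and 49.5 CPM in the positive fraction. Its log2 fold change was 3.18 (SE 0.17, adjusted p = 1.45e-08), again with no overlap between the groups.

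**Figure D1:**
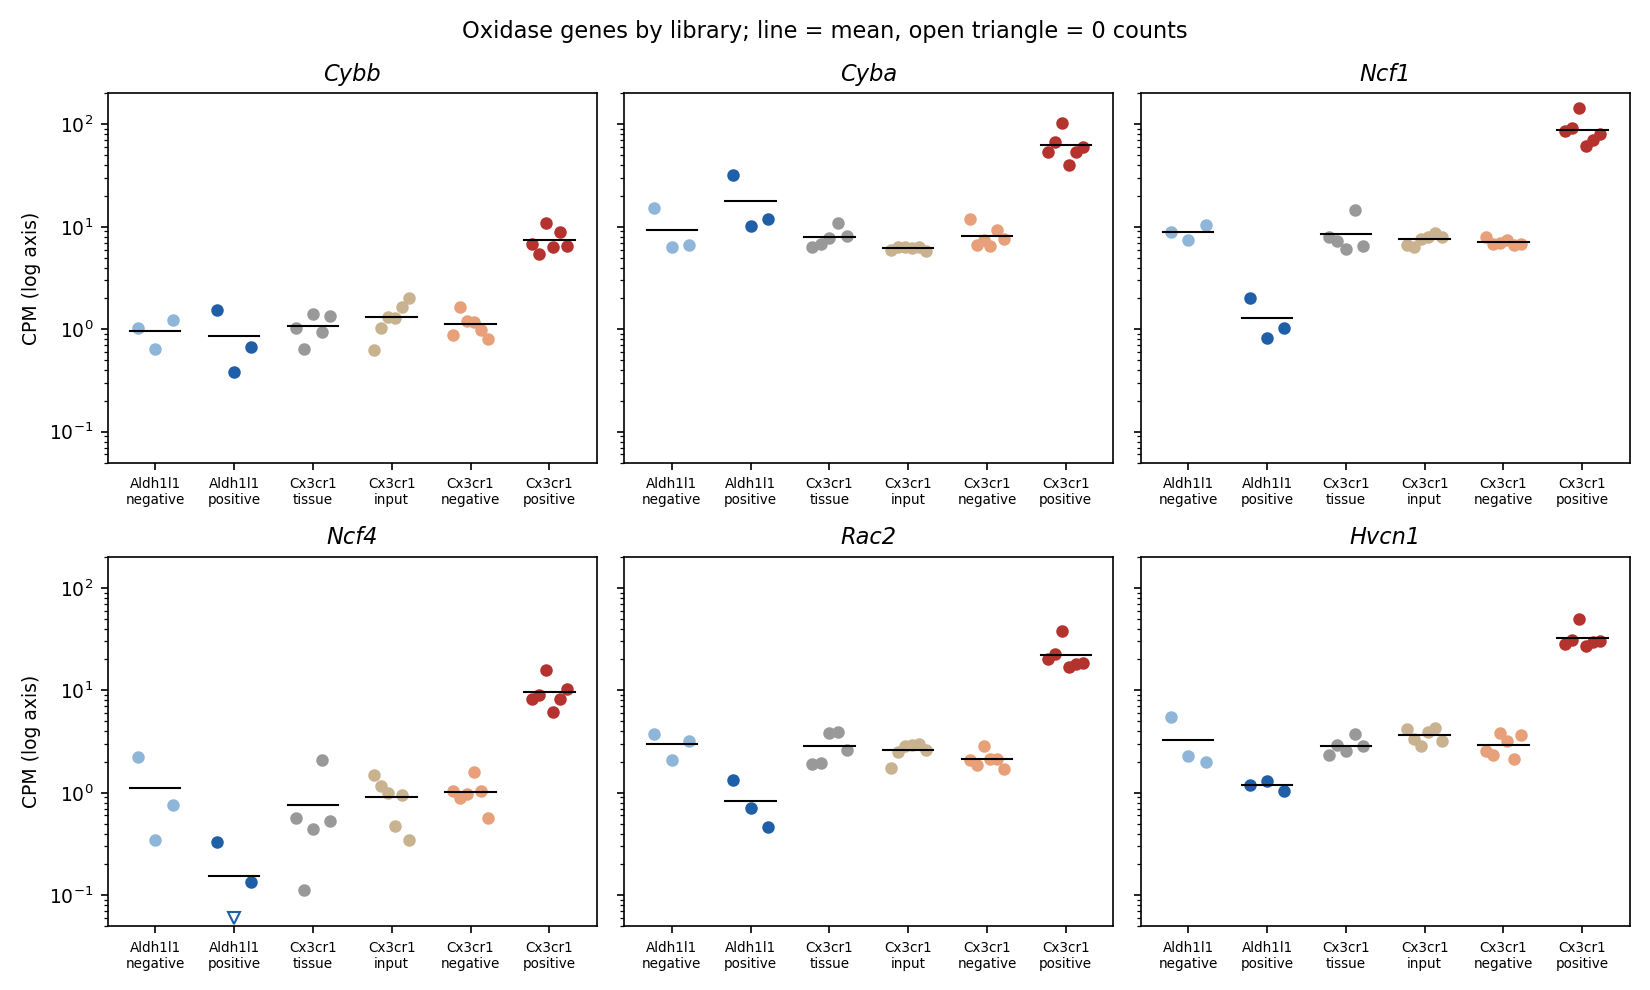
CPM (log axis) of each oxidase gene in each of 29 libraries, by group, with the group mean as a line and a library with 0 counts as an open triangle at the axis floor. The 6 Cx3cr1-NuTRAP positive fractions lie above every other library for each gene, and the Aldh1l1-NuTRAP positive fractions lie lowest for Ncf1, Rac2 and Hvcn1 but not for Cyba.

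The mice did not contribute equally. The positive fraction of mouse 194 was the highest of the 6 for all 6 genes, and that of mouse 209 was the lowest for 5 of them, the exception being Cybb, whose lowest was in mouse 192. The microglia markers moved with this. As a median over these markers, the log2 ratio to the input was 4.51 in mouse 194, the highest, and 3.07 in mouse 209, the lowest. Markers of other phagocytes were measured beside them. All 7 markers of border-associated macrophages, which are resident macrophages of the meninges and vessels, were higher in the positive fraction, with a summed level of 75.1 to 248 CPM against 11.6 to 26.9 CPM in the input. Mouse 194 had the highest sum in each of these fractions. The 9 neutrophil markers summed to 9.63 to 24.9 CPM against 8.42 to 11.6 CPM, with Elane and Mmp8 at or under 3 counts in every positive fraction. Only 1 of these 9, Cxcr2, was tested, and it was higher by 0.77 on the log2 scale. Cxcr2 made most of the sum, at a mean of 12.6 against 7.5 CPM. Means of S100a8, S100a9 and Retnlg were also higher in the positive fraction, and those of Ngp, Camp, Ltf, Elane and Mmp8 were lower. The 5 monocyte markers with a row in the table summed to 31.2 to 44.4 CPM against 35.7 to 53.9 CPM. Most of that sum was Fn1 and Vcan, matrix genes that other cells also make, which were the 2 tested and were both lower. The other 3 were not tested and overlapped between the groups, with higher means in the positive fraction, at 1.04 CPM against 0.595 CPM for Ccr2, 0.318 against 0.170 for Ly6c2 and 0.202 against 0.117 for Plac8. The 7 lymphocyte markers, none of which was tested, summed to 1.97 to 6.52 CPM against 1.11 to 1.88 CPM, highest in mouse 194, with Cd3e and Ms4a1 at or under 3 counts in every positive fraction. Cd79b, a chain of the B cell receptor complex, was at a mean of 1.91 against 0.285 CPM. Of 6 endothelial markers 3 were higher, at a summed 89.1 to 187 CPM against 96.5 to 113 CPM. The part of any of these cell types in the oxidase values was not tested. In bulk RNA such as this, more cells of a type and more RNA per cell cannot be told apart.

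Against the negative fraction and against whole tissue, the same positive fractions gave similar values, and since all these comparisons share them they do not support each other. Against the negative fraction the log2 fold change was 2.75 (SE 0.22) for Cybb, 2.98 (SE 0.22) for Cyba, 3.68 (SE 0.19) for Ncf1, 3.27 (SE 0.26) for Ncf4, 3.41 (SE 0.22) for Rac2 and 3.50 (SE 0.20) for Hvcn1. The adjusted p-values of edgeR lay between 1.47e-08 and 3.62e-07, and 12.8% of 13776 genes tested were higher. Cybb and Ncf4 passed the filter of this comparison only through the positive fraction too, and the other 4 in both groups. Against whole tissue the range was 2.80 (SE 0.27) for Cybb to 4.21 (SE 0.46) for Ncf4, at adjusted p-values of 1.93e-07 to 1.26e-05, where 27.5% of 13470 genes were higher. In that comparison only Cyba and Ncf1 passed the count filter in both groups.

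The whole tissue of mouse 210 stood apart in depth and in level. Ncf1 was at 8.04, 7.19, 6.11, 14.6 and 6.45 CPM in the whole tissue of mice 192, 194, 209, 210 and 277. Ncf4 was at 0.573, 0.113, 0.440, 2.11 and 0.526 CPM in the same order. Mouse 210 was highest of the 5 for every member other than Cybb, with 62 counts of Ncf1 and 9 of Ncf4 behind these values. Cell type markers differed in this library as well. The microglia markers summed to 627 CPM in it against 403 to 463 CPM in the other 4, those of border-associated macrophages to 20.5 against 10.7 to 14.3 CPM, and those of endothelial cells to 153 against 257 to 285 CPM. Neutrophil markers summed to 14.8 against 4.21 to 7.38 CPM, of which Cxcr2 was 10.8 CPM in mouse 210. Lymphocyte markers summed to 3.37 against 1.01 to 1.19 CPM and neuron markers to 7340 against 6160 to 6390 CPM. Their part in the oxidase values of mouse 210 was not tested. Without this mouse, 6 of 6 members were still higher in the positive fraction than in whole tissue.

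How far the oxidase genes kept step with other microglial RNAs was measured within each mouse, as a gene's log2 ratio of positive fraction to input minus the median ratio of the 12 microglia markers. That median was 3.57 ± 0.51 (SD, n = 6 mice). Ncf1 differed from it by -0.06 ± 0.22 (exact sign-flip permutation test, two-sided, p = 0.625). Cybb lay below it in 6 of 6 mice, by -1.10 ± 0.61, from -1.88 in mouse 277 to -0.17 in mouse 155 (exact p = 0.0312). Hvcn1 at -0.44 ± 0.13 and Cyba at -0.28 ± 0.14 also lay below it in 6 of 6 mice, each at an exact p of 0.0312, the smallest p that 6 mice allow. Rac2 lay below it in 5 of 6 mice, at -0.54 ± 0.31 (exact p = 0.0625). Ncf4 was the most variable, at -0.21 ± 0.76, from -1.02 in mouse 155 to 1.00 in mouse 277 (exact p = 0.531). These 6 p-values are not adjusted. The marker list decided the sign for every member other than Cybb, since against the 234 microglial genes listed by the study, without the members, Cyba lay at 0.79, Ncf1 at 1.01, Ncf4 at 0.86, Rac2 at 0.53 and Hvcn1 at 0.63, and Cybb at -0.03.

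**Figure D2:**
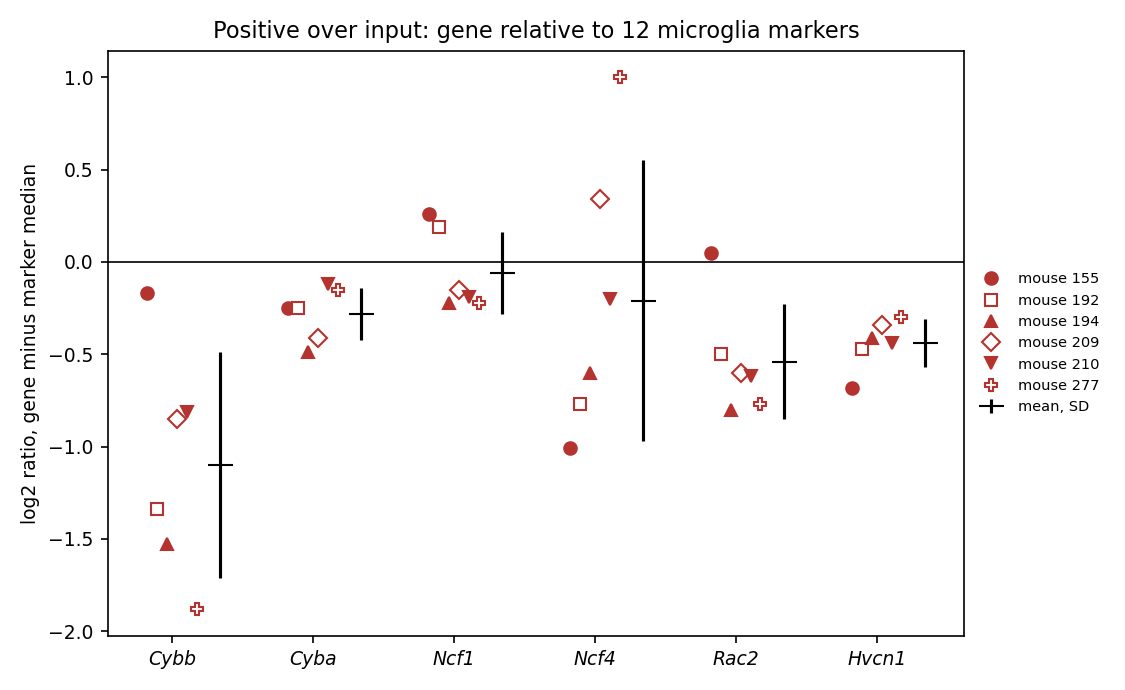
Difference between a gene's log2 ratio of positive fraction to input and the median log2 ratio of 12 microglia markers (vertical axis, log2 units), with a symbol for each of 6 Cx3cr1-NuTRAP mice and the mean and SD in black. Cybb lies at -1.10 on average and Ncf1 at -0.06, while Ncf4 is spread on both sides of 0.

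Levels of different members were compared per kilobase of the union of exons in the GENCODE annotation of the same assembly. In the Cx3cr1-NuTRAP positive fraction, Cyba was at 84.8 ± 28.7 CPM per kb (SD, n = 6) and Ncf1 at 30.9 ± 10.2 CPM per kb. Hvcn1 was at 10.9 ± 2.79, Rac2 at 7.35 ± 2.55 and Ncf4 at 6.59 ± 2.30 CPM per kb. Cybb was lowest, at 1.57 ± 0.421 CPM per kb, over an exon length of 4752 bases. Ranges across mice of Cyba, 54.2 to 138, and of Ncf1, 21.1 to 50.1, did not overlap, nor did those of Ncf4, 4.19 to 10.9, and Cybb, 1.13 to 2.27. Rac2 at 5.54 to 12.4 overlapped both Hvcn1 and Ncf4, so these neighbours were within their spread. The membrane partners, which pair in the protein complex, thus stood at opposite ends of the order. Rac1, at 81.5 ± 10.3 CPM per kb, stood above Rac2 in every positive fraction. The part of cells other than microglia in the level of Rac1 was not tested.

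**Figure D3:**
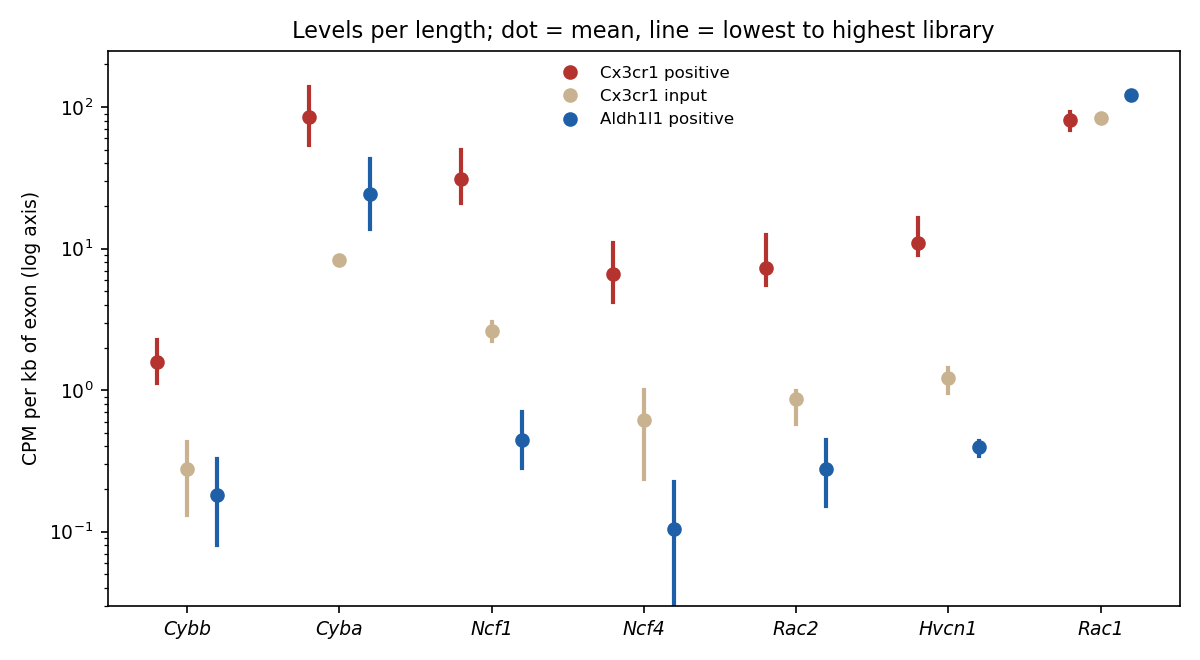
CPM per kilobase of exon (log axis) of the 6 oxidase genes and of Rac1, with the group mean as a dot and the lowest to highest library as a line, for the positive fractions of both lines and the Cx3cr1-NuTRAP input. In the Cx3cr1-NuTRAP positive fraction Cyba is highest of the members at 84.8 and Cybb lowest at 1.57, and in the Aldh1l1-NuTRAP positive fraction Cyba is at 24.2. The line of Ncf4 in that fraction runs to 0, below the axis.

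In the astrocyte pulldown the members did not move together. Ncf1 and Rac2 were lower in the Aldh1l1-NuTRAP positive fraction than in the negative fraction, and Cyba and Hvcn1 did not pass the threshold in this fit, although both were called in other fits named below. Of the 13319 genes tested 24.8% were lower and 26.8% were higher, and 41.7% had every positive fraction below every negative fraction. Overlap was read from CPM, which is scaled by total counts alone. With that scaling the median log2 fold change of all genes here was -0.31, against 0.04 with TMM. Cybb and Ncf4 did not pass the count filter. Ncf1, Rac2 and Hvcn1 passed it only through the negative fraction, and Cyba in both.

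Ncf1 was at 8.98, 7.46 and 10.5 CPM in the negative fractions of mice 290, 293 and 294, and at 2.02, 0.813 and 1.03 CPM in their positive fractions. Each positive fraction lay below each negative fraction. The log2 fold change was -2.50 (SE 0.39, adjusted p = 0.00153), close to the median of -2.42 over the 12 microglia markers, all 12 of which were lower. Rac2 was at 3.78, 2.08 and 3.19 CPM in the negative and at 1.34, 0.714 and 0.463 CPM in the positive fractions. It too did not overlap, at a log2 fold change of -1.54 (SE 0.48, adjusted p = 0.0305), but this call was lost without mouse 293 (adjusted p = 0.109) and without mouse 294 (adjusted p = 0.217). Hvcn1 was at 5.47, 2.29 and 1.98 CPM in the negative and at 1.20, 1.31 and 1.03 CPM in the positive fractions, which did not overlap. Its log2 fold change was -1.07 (SE 0.47, adjusted p = 0.0946), which did not pass the threshold. It was called lower with the mouse as replicate block, at -0.92 (SE 0.38, adjusted p = 0.0479), with all groups in 1 fit, at -1.05 (SE 0.34, adjusted p = 0.00847), and with total counts as the only scaling, at -1.40 (SE 0.46, adjusted p = 0.0336).

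The counts of Ncf4 were 20, 9 and 16 in the negative fractions and 4, 0 and 3 in the positive fractions. Those of Cybb were 9, 16 and 26 in the negative fractions and 18, 8 and 15 in the positive fractions. Ncf4 counts were thus lower in the positive fraction of each mouse, while those of Cybb overlapped. Fitted with no count filter and without the mouse, Ncf4 had a log2 fold change of -2.50 (SE 1.07, adjusted p = 0.103) and Cybb 0.17 (SE 0.62, adjusted p = 0.866), so neither passed the threshold in that fit. A fit of these 2 genes with the mouse as replicate block was not run.

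Cyba went the other way. It was at 15.2, 6.37 and 6.66 CPM in the negative fractions of mice 290, 293 and 294, and at 31.8, 10.2 and 12.0 CPM in their positive fractions. The positive fraction was higher in 3 of 3 mice, and the groups overlapped because both libraries of mouse 290 were high. The log2 fold change was 1.31 (SE 0.55, adjusted p = 0.081). With the mouse as replicate block it was 1.21 (SE 0.17, adjusted p = 6.39e-05), and without mouse 290 it was 1.08 (SE 0.19, adjusted p = 0.000564). The call thus changed with the mouse in the fit and with mouse 290. Mouse 290 stood apart in more than Cyba. Its libraries were the shallowest of the line, at 8782235 counts in the negative and 11910851 in the positive fraction, and its positive fraction was the highest of the 3 for every member other than Hvcn1. In that positive fraction the microglia markers summed to 152 CPM against 71.5 and 79.1 CPM in the other mice. Astrocyte markers were lowest there, at 17400 against 26300 and 24600 CPM, and neuron markers too, at 1550 against 2080 and 2120 CPM. Neutrophil markers summed to 19.1 against 5.76 and 4.51 CPM, of which Cxcr2 was 12.6 CPM in mouse 290. Lymphocyte markers summed to 3.88 against 1.00 and 0.756 CPM, and erythrocyte markers to 95.6 against at most 37.2 CPM. Their part in the level of Cyba was not tested. DESeq2 also called it, at an adjusted p of 0.0312, as did the fit of all groups, at 0.00311. With total counts as the only scaling, which moved the median of all genes in this comparison from 0.04 to -0.31 on the log2 scale, Cyba was at 0.95 (adjusted p = 0.161).

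Markers of other cell types were measured beside Cyba in this pulldown. All 8 choroid plexus markers, chosen after the values of Cyba were seen, were higher in the Aldh1l1-NuTRAP positive fraction, with a summed level of 2960 to 3390 CPM against 498 to 647 CPM in the negative fraction. Of 6 ependymal markers, chosen likewise, 4 were tested and 3 were higher, at a summed 59.5 to 94.5 CPM against 25.9 to 39.7 CPM. That sum was mostly Foxj1, at a mean of 37.8 against 14.5 CPM, and Rarres2, at 25.5 against 7.17 CPM. Of the other markers, Dynlrb2 was higher too, at a mean of 3.96 against 1.59 CPM. Means went the other way for Ccdc153, at 4.48 against 6.13 CPM, Tmem212, at 1.11 against 1.99 CPM, and Fam183b, at 1.35 against 2.06 CPM, so the ependymal list did not move as one. The 6 endothelial markers had a median log2 fold change of -0.18, at a summed 65.0 to 91.4 CPM against 83.2 to 142 CPM. Microglia markers were at 71.5 to 152 CPM against 400 to 647 CPM. The part of any of these cell types in the level of Cyba was not tested.

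Set against the microglia markers of the same library, the mean of 4 members, Cyba, Cybb, Hvcn1 and Rac2, was highest of the 6 groups in the Aldh1l1-NuTRAP positive fraction, for Cyba and Cybb with no overlap. Per 1000 counts of the 12 markers, Cyba had 168 ± 36.2 counts (SD, n = 3) in the Aldh1l1-NuTRAP positive fraction, against 18.0 ± 4.94 in the negative fraction and 11.7 ± 0.534 (SD, n = 6) in the Cx3cr1-NuTRAP positive fraction. Its lowest astrocyte positive fraction, at 142, was above its highest value in any other group, 23.5. Cybb had 8.01 ± 2.47 counts per 1000 in the Aldh1l1-NuTRAP positive fraction and 2.02 ± 0.934 in the negative fraction, from 8 to 18 counts of Cybb a library in the positive and 9 to 26 in the negative fractions. Its lowest astrocyte positive fraction, at 5.33, was also above its highest value in any other group, 4.34. Ncf1 had 12.6 ± 1.03 and 18.8 ± 6.56 counts per 1000 in these fractions and 16.6 ± 0.576 in the Cx3cr1-NuTRAP positive fraction. Its values across all 29 libraries ran from 11.4 to 26.3. Hvcn1 had 13.1 ± 5.21 counts per 1000 in the Aldh1l1-NuTRAP positive fraction, against 6.13 ± 2.01 in the negative fraction and 7.99 ± 1.22 in the Cx3cr1-NuTRAP input, and its lowest library, at 7.91, overlapped both. Rac2 had 8.23 ± 2.14 against 6.11 ± 1.75 in the negative fraction and Ncf4 1.29 ± 1.14 against 2.05 ± 1.37, which also overlapped. These ratios are given with no test.

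**Figure D4:**
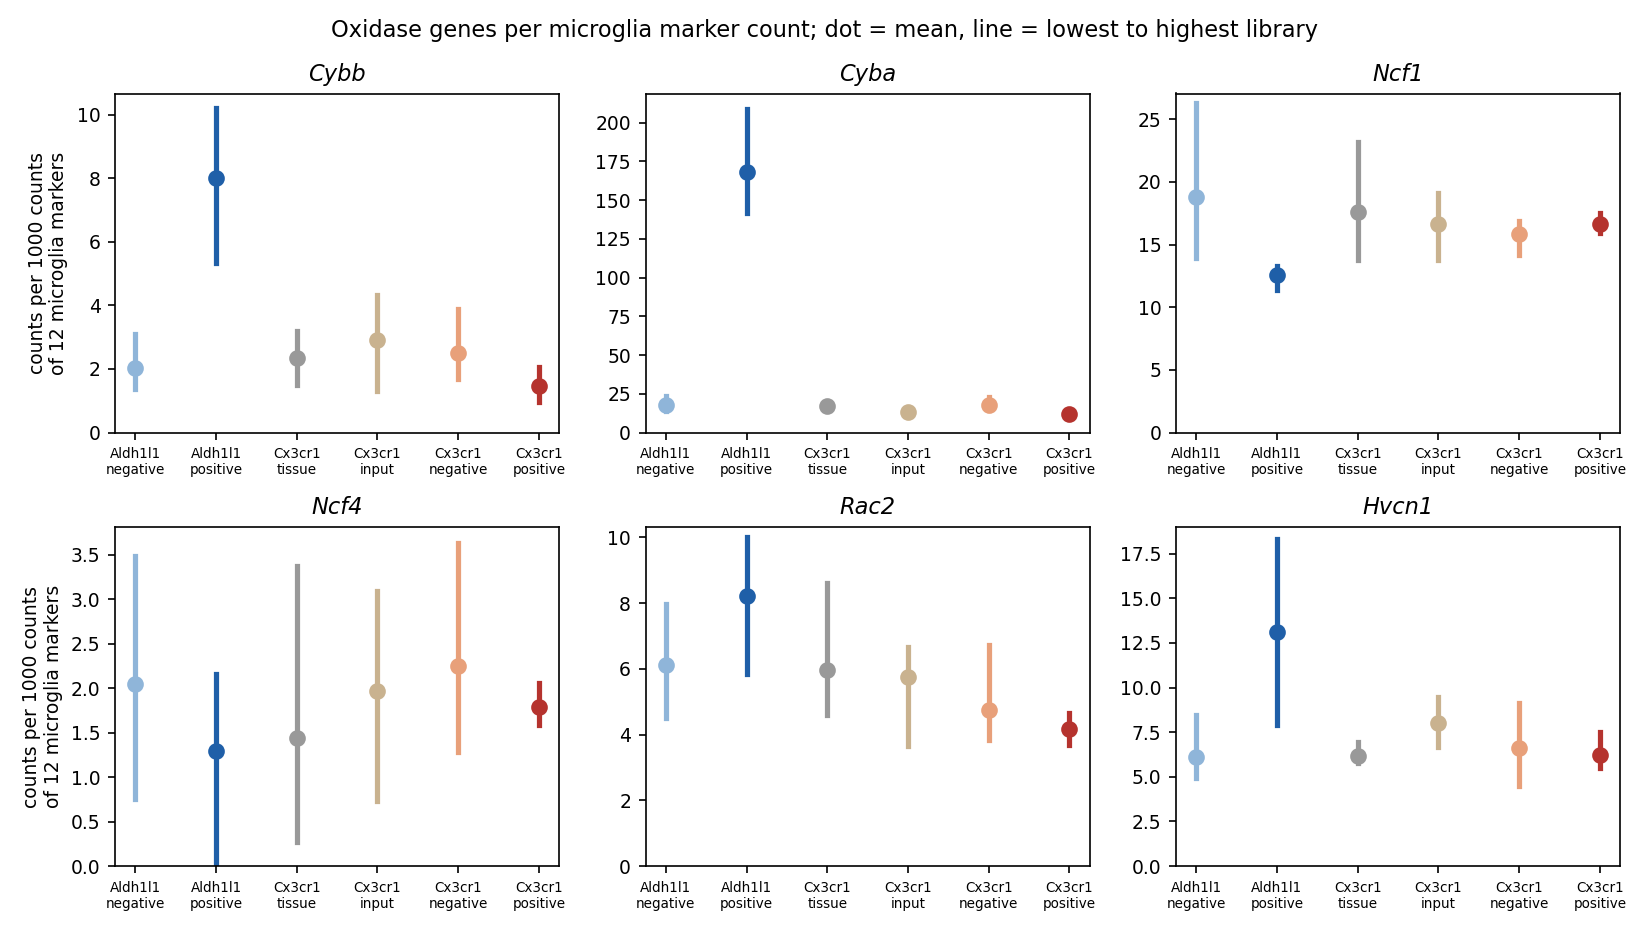
Counts of each oxidase gene per 1000 counts of 12 microglia markers in the same library (vertical axis, a separate linear scale for each gene), as the group mean (dot) and the lowest to highest library (line). Cyba stands at 142 to 209 in the 3 Aldh1l1-NuTRAP positive fractions and at most at 23.5 elsewhere, Cybb at 5.33 to 10.2 against at most 4.34, while Ncf1 stays between 11.4 and 26.3 in all groups.

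The positive fractions of both lines were also set against each other. All 6 members were higher in the Cx3cr1-NuTRAP positive fraction, with no overlap, where 33.1% of 13676 genes were higher and 42.0% had every microglia library above every astrocyte library. Overlap was again read from CPM, and with total counts as scaling the median of all genes was 0.39, against 0.08 with TMM. All but Cyba passed the count filter only through the Cx3cr1-NuTRAP positive fraction. Cyba had the smallest difference, 2.85-fold (log2 fold change 1.51, SE 0.41, adjusted p = 0.00747). Across the alternatives run, its log2 fold change was 1.22 to 2.23. Cybb was 7.49-fold higher (2.91, SE 0.43), Hvcn1 22.4-fold (4.48, SE 0.29) and Rac2 23.1-fold (4.53, SE 0.43). Ncf1 was 59.1-fold higher (5.89, SE 0.42), and the 57.2-fold value of Ncf4 (5.84, SE 0.62) rested on 7 counts in all 3 astrocyte libraries. The alternatives gave log2 fold changes of 5.17 to 6.73 for Ncf4 and 2.53 to 3.52 for Cybb. Where the lines are compared, the line cannot be told apart from the mice. Nor can it be told apart from the time between tamoxifen and collection, since the paper describes a longer delay for the Cx3cr1-NuTRAP line.

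An interaction term asked whether the pulldown ratio, positive over negative fraction, differed between the lines. Of 13983 genes tested, 29.9% had a higher ratio in the Cx3cr1-NuTRAP line. The median over all genes was 0.11. All 6 members were called in that direction. The difference was 1.70 (SE 0.53, adjusted p = 0.011) for Cyba, 2.70 (SE 0.53, adjusted p = 0.000314) for Cybb and 4.56 (SE 0.45, adjusted p = 1.22e-07) for Hvcn1. It was 5.01 (SE 0.48, adjusted p = 7.38e-08) for Rac2, 5.81 (SE 0.87, adjusted p = 1.83e-05) for Ncf4 and 6.27 (SE 0.40, adjusted p = 4.37e-10) for Ncf1. Cybb and Ncf4 again passed the filter only through the Cx3cr1-NuTRAP positive fraction.

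**Figure D5:**
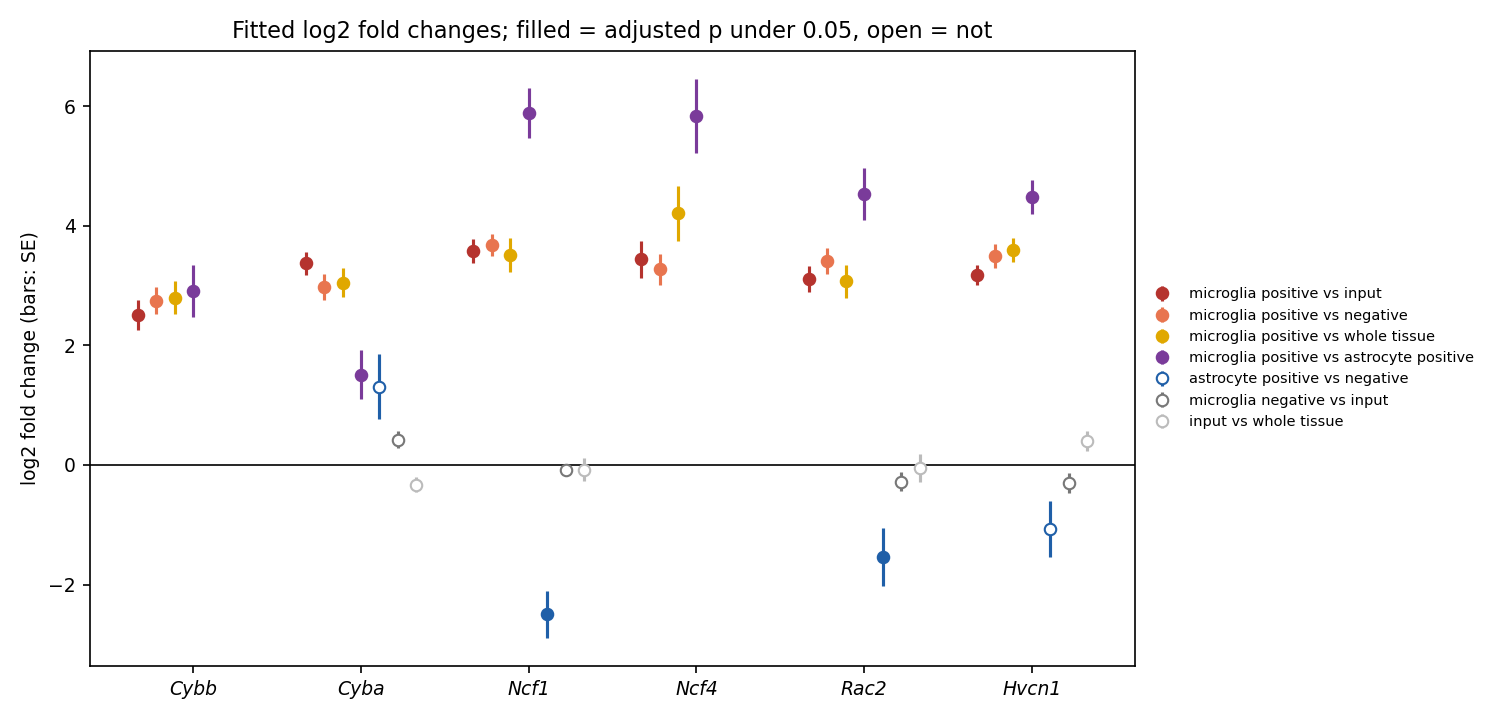
Fitted log2 fold change with its SE for each oxidase gene in 7 comparisons (colours), where the first group named is divided by the second, filled points have an adjusted p under 0.05 and missing points were not tested. Values of the Cx3cr1-NuTRAP positive fraction against its own fractions and tissue lie between 2.51 and 4.21, and the astrocyte pulldown is below 0 for Ncf1, Rac2 and Hvcn1 and at 1.31 for Cyba.

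Without the pulldown the members differed little. Between the negative fraction and the input of the Cx3cr1-NuTRAP mice, 0 of the 4 members tested were called by edgeR, where 1.41% of 13748 genes were higher and 4.7% lower. Cyba was at 6.47, 7.52 and 11.8 CPM in the negative fraction, all above the inputs. It was highest in mouse 155, whose negative fraction stood apart from the others across genes. The log2 fold change of Cyba was 0.42 (SE 0.14, adjusted p = 0.0765), and 1.07% of genes had every negative fraction above every input. Its unadjusted p was under 0.05, the only member of which this held. Cyba was called with the mouse as replicate block, at 0.39 (SE 0.12, adjusted p = 0.0225), and by DESeq2, at 0.42 (adjusted p = 0.0348). Ncf1 at -0.08 (SE 0.10), Rac2 at -0.28 (SE 0.16) and Hvcn1 at -0.30 (SE 0.17) had unadjusted p-values above 0.05. Between input and whole tissue, 0 of 4 were called by edgeR, where 16.3% of 13608 genes were higher and 14.2% lower. Unadjusted p-values were under 0.05 for 2 of them, Cyba at -0.33 (SE 0.13, adjusted p = 0.0675) and Hvcn1 at 0.40 (SE 0.17, adjusted p = 0.088), and DESeq2 called Cyba, at -0.32 (adjusted p = 0.0429).

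Other genes of the pathway were counted by list. Of 12 partners and maturation factors, 9 were tested in the Cx3cr1-NuTRAP positive fraction against input, with 6 higher and 1 lower, and a median log2 fold change of 0.36 against -0.00 over all genes. Of all 13838 genes tested there, 23.3% were higher and 25.6% lower, which is the background for the counts of each list against input. Cybc1, a chaperone of the membrane core, was higher at 0.79 (SE 0.14, adjusted p = 0.000378), and Rac3, the third Rac GTPase, was higher at 0.60 (SE 0.10, adjusted p = 0.000359). Sh3pxd2b, an organiser-like scaffold, was lower at -0.73 (SE 0.09, adjusted p = 1.9e-05). In the astrocyte pulldown, Rac1 was higher at 0.84 (SE 0.13, adjusted p = 0.00159), Sh3pxd2b was higher at 2.21 (SE 0.38, adjusted p = 0.0024) and Cybc1 was at 0.05 (SE 0.16).

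Of 23 genes upstream of assembly, 22 were tested against input, with 10 higher, 3 lower and a median of 0.26. The largest value was that of Itgb2, the shared chain of the leukocyte integrins, at 3.53 (SE 0.19, adjusted p = 2.14e-08), and the smallest that of Tiam1, a Rac exchange factor, at -0.50 (SE 0.10, adjusted p = 0.000787). In the astrocyte pulldown 21 of these were tested, with 5 higher and 12 lower, and a median of -1.27 against 0.04 over all genes, where 26.8% of all genes were higher and 24.8% lower. In that pulldown all 8 neuron markers were lower (median -1.58), as were 6 of 7 oligodendrocyte markers (-2.53) and all 12 microglia markers (-2.42). The part of these cell types in the values of the upstream genes was not tested. Of 8 genes that handle superoxide and peroxide, 7 were tested against input, with 2 higher and 1 lower, a share higher that is near the 23.3% of all genes. Gpx1, a glutathione peroxidase, was highest at 0.64 (SE 0.10, adjusted p = 0.000124), and Sod3, the secreted superoxide dismutase, lowest at -0.27 (SE 0.10, adjusted p = 0.0463). In the astrocyte pulldown 3 of the 7 were higher and the others were not called, with a median of 1.05. In the Cx3cr1-NuTRAP positive fraction against that of the Aldh1l1-NuTRAP line, 6 of the 7 were lower and Gpx1 was not called, with a median of -1.25, where 30.6% of all genes were lower.

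None of 5 other catalytic subunits (Nox1, Nox3, Nox4, Duox1 and Duox2) passed the count filter in any comparison. Nox4, an oxidase active without cytosolic subunits, had at most 21 counts in a library, in whole tissue, and 0 to 8 counts in the Cx3cr1-NuTRAP positive fractions. Cybb, with 84 to 198 counts there, was the only catalytic subunit of the family that was tested.

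As a description of likeness, the genes whose log2 CPM over the 29 libraries correlated best with the mean of the 6 members were found among 14102 genes that are no members. Among the first 10 were Unc93b1 (Pearson r = 0.985), Olfml3 (0.983), Lag3 (0.980), Cyth4 (0.980), Tgfb1 (0.976), Laptm5 (0.976), Fcgr2b (0.974), Plek (0.973) and Was (0.972). By single gene, Ncf1 was most like C1qc (0.992), Csf1r (0.992) and Fcgr3 (0.991), Ncf4 most like Samsn1 (0.955), Rac2 and Hvcn1 most like Unc93b1 (0.979 and 0.981), and Cybb most like Syk (0.938). Cyba was most like the lysosomal genes Hexa (0.984) and Ctsd (0.982). Between members, r ran from 0.704 for Cyba with Ncf1 to 0.971 for Ncf1 with Rac2. The libraries share 9 mice and fall into positive fractions and the rest, and r was not computed within either.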

How the data were processed

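TRAP-RNAseq libraries of polyA RNA were made strand-specific and sequenced as paired-end reads. Trimming, alignment to mm10 and assignment of reads to genes were done by the authors in Strand NGS. The deposited raw values are expected counts per gene, without normalization. Of the nonzero values 81.4% were not whole (tolerance 0.001), so all were rounded. The other deposited values are log2 values that the authors made by DESeq normalization (also named in the submitters' processing notes), and they were not used here. Every column was matched to its mouse and fraction by its label. Total counts per library ranged from 4260949 to 26857866.

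A gene was tested if all libraries of at least 1 compared group had more than 20 of its counts, by the two-sided quasi-likelihood test of edgeR 4.0.16 in R 4.3.3 (TMM scaling, robust dispersion, Benjamini-Hochberg adjustment over all genes tested, threshold 0.05). Only the groups compared entered a fit, except the interaction between line and fraction, which used the positive and negative fractions of both lines. The SE was the log2 fold change divided by the square root of F. CPM was the raw count per 1000000 counts. Log2 CPM for ratios within a mouse had a prior count of 2. The scripts were tested on simulated counts. Alternatives were DESeq2 1.42.0, total counts as scaling, no filter, at least 100 counts, all groups in 1 fit, the mouse as replicate block and each mouse left out. The numbers of replicates are animal numbers, so fractions of a mouse come from the same animal. As a check, residuals of libraries of a mouse were correlated across genes. They exceeded 0.1 for all 3 mice of the Aldh1l1-NuTRAP line. For the Cx3cr1-NuTRAP line they did so between negative fraction and input for 5 of 6 mice, between positive fraction and input for 3 of 6, between positive and negative fraction for 3 of 6, and between tissue and input or positive fraction for 0 of 5. Replicates are separate mice, and no 2 libraries of a group agreed within sampling noise.

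The members, the pathway and marker lists and the tests were chosen with earlier results of these data known, and the choroid plexus and ependymal lists after the values of Cyba had been seen. All members were named, and other pathway genes were named where they were the nearest relative of a member or had the largest or smallest value of their list among those called against input. Some genes that these rules name are not reported here. Lengths and overlaps are from the GENCODE annotation of GRCm38. Tables and plots were made with matplotlib 3.10.9, numpy 2.4.6 and pandas 2.3.3 under Python 3.11.15.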

Additional observations from a re-analysis of the deposited data

Results flagged for a closer look

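Among 24 sets of a member and a group of 4 to 10 libraries tested for an outlying library by Dixon's gap ratio, 4 stood out, and chance alone gives about 1 in 20. The sets share libraries and the members correlate, so the sets are not independent and their number cannot be set against that rate. In the Cx3cr1-NuTRAP positive fraction, the library of mouse 194 was at 37.6 CPM for Rac2, where the next was 22.8 CPM, and at 49.5 CPM for Hvcn1, where the next was 31.3 CPM. Mouse 194 also had the highest ratio of microglia markers to input, 4.51 on the log2 scale. Its border-associated macrophage markers summed to 248 CPM, against 75.1 to 109 CPM in the other positive fractions. In whole tissue, the library of mouse 210, which had the fewest counts, was at 14.6 CPM for Ncf1, where the next was 8.04 CPM, and at 2.11 CPM for Ncf4, where the next was 0.573 CPM. The part of pulldown yield, depth or cell types in these values was not tested.

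The log2 ratio of positive to negative fraction differed between the lines for all 6 members by the interaction test. The difference, Cx3cr1-NuTRAP minus Aldh1l1-NuTRAP, was 4.56 for Hvcn1, 6.27 for Ncf1, 1.70 for Cyba, 5.81 for Ncf4, 5.01 for Rac2 and 2.70 for Cybb. Cyba was the member with the smallest difference, and its ratio in the Aldh1l1-NuTRAP line was above 0 where those of Ncf1, Rac2 and Hvcn1 were below it.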

How the results depend on the processing

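In the interaction and the 4 comparisons that use the Cx3cr1-NuTRAP positive fraction, every call of a member that could be tested kept its direction and side of the threshold under the alternatives run. In the astrocyte pulldown, the count of members higher rose from 0 to 1 (Cyba) with DESeq2, with all groups in 1 fit and with the mouse as replicate block, and the count lower fell from 2 to 0 with at least 100 counts, where fewer genes were tested, and rose to 3 (with Hvcn1) with all groups in 1 fit, with the mouse as replicate block and with total counts as scaling. Leaving out a mouse gave 0 to 1 members higher and 1 to 2 lower. Total counts as scaling moved the median of all genes in the interaction from 0.11 to 0.39, and every member remained above it. Between negative fraction and input, 1 member (Cyba) was higher with DESeq2 and with the mouse as replicate block, and 1 was lower between input and whole tissue with DESeq2. Beyond the values beside the results, the block changed no call of a member.

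Counts over all genes depended on the mice. Leaving out a mouse gave 1151 to 2090 genes higher and 570 to 2183 lower between Cx3cr1-NuTRAP positive and negative fractions, 1977 to 4887 higher and 1600 to 4844 lower in the astrocyte pulldown, 0 to 1774 higher and 0 to 2041 lower between negative fraction and input, and 1270 to 2697 higher and 1190 to 2698 lower between input and whole tissue. The lowest counts came without mouse 194 and mouse 192 in the first of these, without mice 293 and 294 in the pulldown, and without any mouse but 155, whose absence gave the highest, between negative fraction and input. Between negative fraction and input, where 194 genes were higher and 646 lower, DESeq2 called 766 and 1290, the mouse as replicate block 2431 and 2684, no filter 53 and 228, and all groups in 1 fit 0 and 59. The fit of all groups gave 1121 genes higher between input and whole tissue, against 2217.

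Relative to microglial genes, the sign reversed with the study's list in place of the 12 markers for Cyba (0.79), Ncf1 (1.01), Ncf4 (0.86), Rac2 (0.53) and Hvcn1 (0.63) but not for Cybb (-0.03), and the cause was not tested. Low counts limit Cybb and Ncf4 outside the Cx3cr1-NuTRAP positive fraction.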
